A study of Mus musculus with 7 samples.

Results

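The CXCR3 and CXCR6 chemokine axes were followed through 5 of the 55491 gene rows of a single-cell RNA matrix from glioma-bearing mouse brain. The genes are the ligands Cxcl9, Cxcl10 and Cxcl16 and the receptors Cxcr3 and Cxcr6. They were taken by name and not by any measured value, and all 5 were detected. The matrix held 40022 UMIs (unique molecular identifiers, each marking 1 captured RNA molecule) of Cxcl9, 32770 of Cxcl10, 63250 of Cxcl16, 8138 of Cxcr3 and 24840 of Cxcr6.

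The mice carried CT-2A cells, a mouse glioma line, injected into the brain at an age of 8 to 12 weeks. All 7 mice had the floxed Siglece allele (Siglecefl/fl) and all received tamoxifen, 2.5 mg per injection, daily from day 7 to day 21 after the tumour cells and every other day from then on. The 4 KO mice also carried Sall1CreERT2, a tamoxifen-activated Cre inserted at Sall1, a gene that marks microglia among brain immune cells, so that the genotypes differed in this driver as well as in Siglece; the 3 WT mice did not carry it. Live cells positive for CD45, CD11b or both were sorted from frozen and thawed suspensions of the tumour-bearing hemisphere and read from the 5′ end of the transcripts, 1 library per mouse.

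The libraries held 1410 to 5856 cells, 28644 in all, with a median of 4479 to 9554 UMIs per cell. The authors gave each cell 1 of 23 annotation values, and their names are used here. Markers of microglia (4 of 4), B cells (3 of 3), NK cells (3 of 3), plasmacytoid dendritic cells (4 of 4), T cells (5 of 6) and conventional dendritic cells (4 of 5) were highest in the class of that name, but only 2 of 5 monocyte-derived markers were. Siglece, the targeted gene, was at 0 to 19.6 CPM in KO microglia and 18.6 to 45.9 CPM in WT microglia, from at most 20 UMIs in a mouse, and the genotypes overlapped; CPM is UMIs per 1000000 UMIs of the same sum. Microglia were few, so that no KO mouse reached 20 cells of the main microglia value, and values from fewer than 20 cells of a mouse are not used below. Of 28178 distinct cell barcodes, 460 occurred in more than 1 library. Xist and Y-linked genes marked 2 KO mice and 1 WT mouse as female.

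CXCL9 and CXCL10 are small secreted proteins that interferon-γ induces in myeloid cells, and both signal through CXCR3, a receptor of activated T cells, NK cells and some B cells and dendritic cells. CXCL16 is made as a membrane-bound protein that ADAM10 and ADAM17 cut free, and its receptor CXCR6 marks effector and tissue-resident T cells. In tumours both axes are known for drawing and placing T cells near antigen-presenting myeloid cells.

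Cxcl9 (chromosome 5, 92321347 to 92328079, minus strand, GRCm38) and Cxcl10 (92346638 to 92348889, minus strand) lie next to Cxcl11, with 20810 bases between their start sites. Cxcl10 lies inside Art3, Cxcr6 (chromosome 9, 123806475 to 123811760, plus strand) inside Fyco1, and the first 552 bases of Cxcl16 (chromosome 11, 70453983 to 70459984, minus strand) overlap Zmynd15, each time on the opposite strand. Cxcr3 lies on chromosome X (101731535 to 101734269, minus strand). Whether the counting used strand is not given in the sources used here, so reads of such partners may not be separated. The 250 bases before the start sites of the 2 interferon-induced ligands are printed because their levels differed among cell types and among mice in the values below. The sequences are from RefSeq (GRCm38.p6), minus strand, at chr5:92328080-92328329 for Cxcl9 and chr5:92348890-92349139 for Cxcl10, and capitals mark every match to an interferon-response core (GAAA, any 2 bases, GAAA) or an NF-kB-like motif (GGG, any 3 bases, T, any 1 base, CC), searched on both strands.
Cxcl9: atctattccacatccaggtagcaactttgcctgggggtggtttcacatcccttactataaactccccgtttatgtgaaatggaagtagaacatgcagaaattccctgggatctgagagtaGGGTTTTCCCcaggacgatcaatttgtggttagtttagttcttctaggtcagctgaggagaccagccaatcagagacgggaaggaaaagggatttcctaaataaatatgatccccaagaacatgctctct
Cxcl10: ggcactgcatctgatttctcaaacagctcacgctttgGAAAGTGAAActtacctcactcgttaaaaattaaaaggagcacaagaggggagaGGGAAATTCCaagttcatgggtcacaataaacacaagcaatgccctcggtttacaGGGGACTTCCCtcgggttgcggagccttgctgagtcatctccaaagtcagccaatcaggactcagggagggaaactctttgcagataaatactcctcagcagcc
Cxcl10 had 1 interferon-response core, from position -213 to -204 counted from the start site, and 3 NF-kB-like matches, of which 2 overlap. Cxcl9 had 1 NF-kB-like match, from -130 to -121. Neither held a GAS motif (TTC, any 3 bases, GAA) in this window, and the promoters of Cxcr3 and Cxcr6 held none of the 3 motifs; Cxcl16 was not in the table of promoters. Over 32851 promoters of 300 bases, 3.44% held the interferon-response core, 17.4% the NF-kB-like motif and 8.30% the GAS motif. These matches describe letters only.

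The first question was which cells carried each transcript. Levels between annotation values are a description without a test, since the authors' annotation comes from the same transcriptomes.

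Cxcl9 was carried by monocytes, macrophages and dendritic cells. Over mice it was at 568 ± 360.5 CPM (mean ± SD, n = 7) in monocytes P1-P2, 516 ± 288 (n = 6) in proliferating macrophages, 492 ± 201 (n = 7) in macrophages P3 and 486 ± 264 (n = 7) in macrophages P5. These 4 values cannot be put in order: the one above was higher than the next in 2 of 6, 4 of 6 and 4 of 7 mice. cDC1 and mo-DCs followed at 246 ± 82.2 and 246 ± 76.9 CPM, and macrophages P5 were above cDC1 in 6 of 7 mice. In cDC2 the level was 119 ± 108 CPM and ranged from 21.4 to 297. All other values, microglia included at 28.0 ± 7.77 CPM (3 WT mice), had a mean of 55.1 CPM or less.

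Cxcl10 was concentrated in monocytes P1-P2, at 860.0 ± 367 CPM (n = 7), higher than in proliferating macrophages (302 ± 230.4) in 6 of 6 mice. Macrophages P5 had 300.3 ± 86.3 CPM, the main microglia value 289 ± 168 (3 WT mice), tumour or stromal cells 228 ± 194 (n = 5), macrophages P3 227 ± 92.6, and low-quality or activated microglia 214 ± 132 (n = 5). Gamma-delta T cells, a lymphoid value, had 208 ± 77.7 CPM (n = 4), and mo-DCs 179 ± 89.1 (n = 7). The macrophage, microglia, gamma-delta T cell and mo-DC levels lay within each other's spread over mice. Conventional and plasmacytoid dendritic cells were lower, at 51.8 ± 20.3 CPM in cDC1, 33.0 ± 29.4 in cDC2 and 12.4 ± 11.7 in plasmacytoid dendritic cells. In naive or early CD4 T cells the mean of 124 CPM rested on KO replicate 1, at 487 CPM from 45 UMIs in 29 cells, while the other 6 mice had 31.8 to 156 CPM. The 5 monocyte-derived markers summed to 720 CPM in this value of KO replicate 1, and to 402 to 1160 CPM over all 7 mice. Of the 720 CPM, 395 were Ly6c2, which was highest in B cells among the classes. Lyz2 and Arg1, the 2 markers highest in monocyte-derived cells, were at 119 and 64.9 CPM in KO replicate 1. In the other 6 mice Lyz2 was at 133 to 633 CPM and Arg1 at 4.34 to 83.8 CPM. The part of monocyte-derived RNA in the Cxcl10 of KO replicate 1 was not tested.

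Cxcl16 was the ligand with the broadest and most even level in myeloid cells. cDC2 led at 975 ± 138 CPM (n = 7) and were above macrophages P5 (695 ± 80.5) in 7 of 7 mice. Macrophages P3 (660.0 ± 107), monocytes P1-P2 (617 ± 158), proliferating macrophages (582 ± 41.2, n = 6) and mo-DCs (538 ± 57.4) lay close together. The main microglia value had 355 ± 105 CPM (3 WT mice), cDC1 319 ± 41.6 and low-quality or activated microglia 246 ± 70.8 (n = 5). Lymphoid, plasmacytoid dendritic and tumour or stromal values had means of at most 36.8 CPM, so the step from the lowest of these myeloid values was wide. Among the conventional dendritic cells the Cxcl16 ranges of cDC1 (257 to 363 CPM) and cDC2 (817 to 1187) did not overlap, whereas those of Cxcl9 and of Cxcl10 did.

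**Figure D1:**
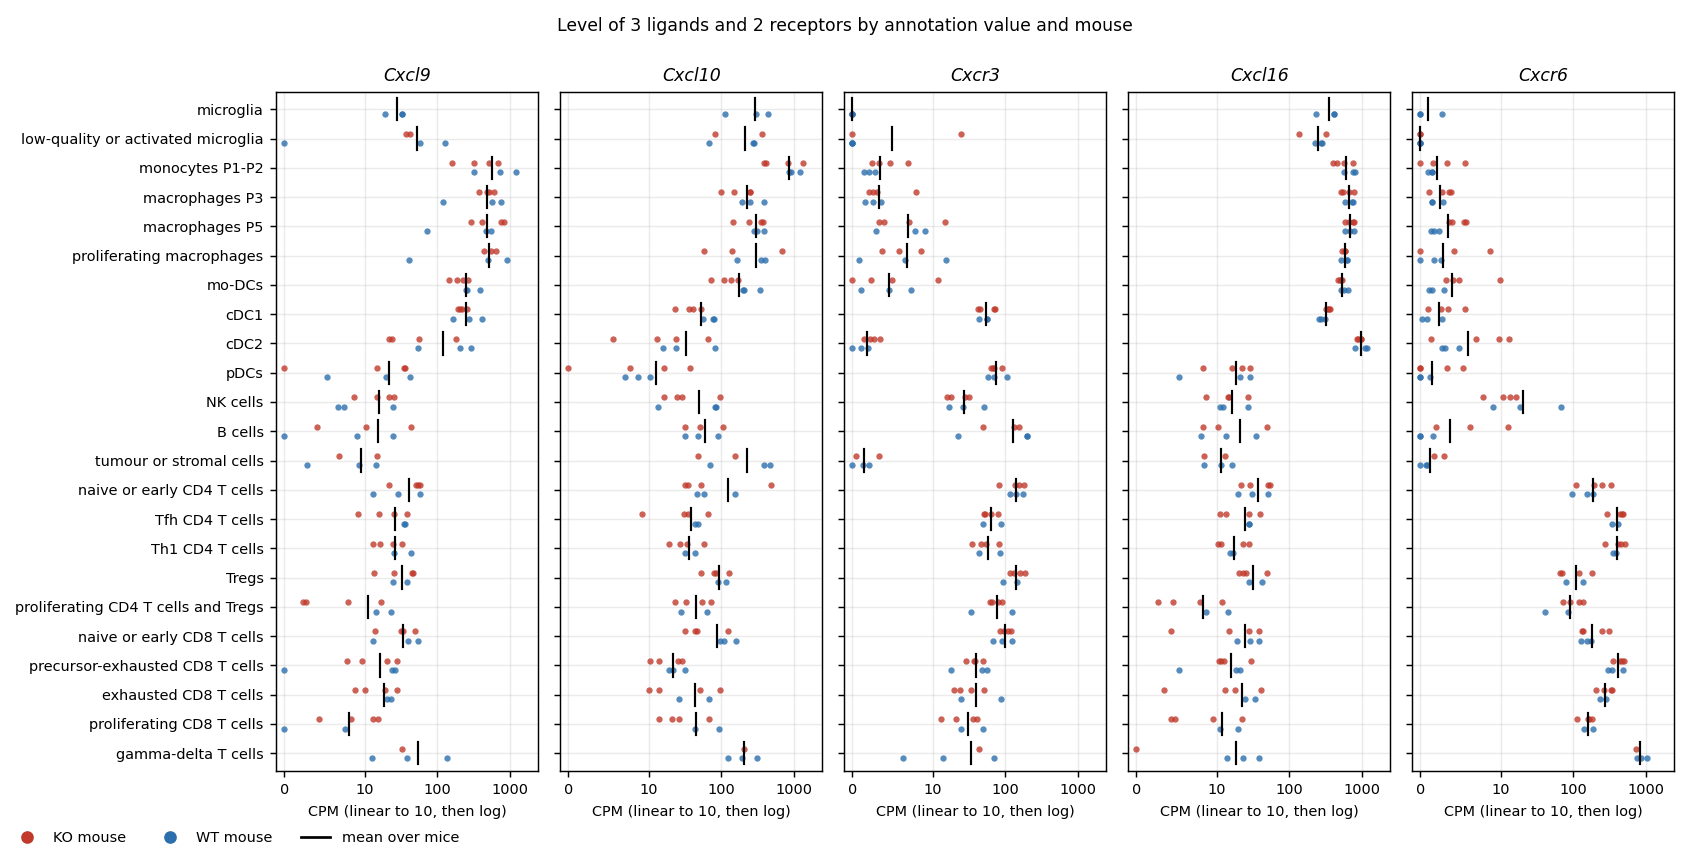
Level of each gene in CPM (horizontal axis, linear up to 10 and logarithmic above) in the 23 annotation values (vertical axis), with 1 point for each KO or WT mouse with 20 or more cells and a black bar at the mean over mice. Cxcl9 and Cxcl16 are highest in myeloid values and Cxcr6 in T cells; Cxcl10 is highest in monocytes P1-P2 but also reaches 228 CPM in tumour or stromal cells and 208 in gamma-delta T cells, and Cxcr3 is found in T cells, B cells, cDC1 and plasmacytoid dendritic cells.

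Cxcr3, the receptor of Cxcl9 and Cxcl10, was high in early and regulatory T cells and in B cells and lower in exhausted T cells. Naive or early CD4 T cells had 141 ± 35.3 CPM (n = 7), Tregs 139 ± 33.3 (n = 6), B cells 127 ± 75.9 (n = 6) and naive or early CD8 T cells 99.0 ± 19.7 (n = 7). The first 3 cannot be put in order: Tregs were above B cells in 2 of 5 mice, and B cells had the highest median over mice. Th1 CD4 T cells had 57.6 ± 21.3, exhausted CD8 T cells 39.9 ± 25.8 and precursor-exhausted CD8 T cells 39.3 ± 13.04 CPM, and naive or early CD8 T cells were above precursor-exhausted ones by the ranges of 68.6 to 123 against 17.8 to 56.1 CPM. Outside the lymphocytes, plasmacytoid dendritic cells had 75.1 ± 16.3 and cDC1 54.9 ± 12.1 CPM, while cDC2 had 1.80 ± 1.11. B cells spread widely between mice, from 22.0 CPM in WT replicate 1 to 202 CPM in WT replicates 2 and 3. Macrophages and monocytes had at most 6.97 CPM on average.

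Cxcr6, the receptor of Cxcl16, followed another order within the T cells. Gamma-delta T cells had 847 ± 143 CPM (n = 4, of which 1 KO), above precursor-exhausted CD8 T cells in 4 of 4 mice. Precursor-exhausted CD8 T cells (415 ± 79.0, n = 7), Tfh CD4 T cells (407 ± 76.6, n = 6) and Th1 CD4 T cells (402 ± 86.0, n = 6) had overlapping ranges over mice. Precursor-exhausted CD8 T cells were above Tfh cells in 5 of 6 mice, and Tfh cells above Th1 cells in 3 of 6. Exhausted CD8 T cells followed at 279 ± 53.8, below Th1 cells in 6 of 6 mice. Naive or early CD4 and CD8 T cells had 190.0 ± 82.9 and 184 ± 69.2 CPM, Tregs 109 ± 45.7. NK cells were at 20.4 ± 20.9 CPM, a mean that WT replicate 2 raised with 66.9, and every value outside T and NK cells was under 6 CPM on average. Precursor-exhausted CD8 cells thus lay near the top for Cxcr6 and near the bottom of the T cells for Cxcr3, whereas Tregs lay near the top for Cxcr3.

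The share of positive cells was taken after every cell was thinned to 1000 UMIs, which left out 38 KO and 24 WT cells below that depth. A Cxcl16 UMI was found in 56.3 ± 5.46% of cDC2 and 46.5 ± 4.53% of macrophages P5 (n = 7), or 96.1% and 93.5% without thinning. Cxcl10 was found in 25.6 ± 6.62% of monocytes P1-P2 (42.2% unthinned), and Cxcl9 in 19.8 ± 8.87% of them (36.3% unthinned) and 21.1 ± 8.45% of macrophages P5. In B cells, which serve here as a background for ligand RNA released from other cells, the thinned shares were 1.42% for Cxcl16, 2.72% for Cxcl10 and 1.17% for Cxcl9, with a median depth of 7302 UMIs against 6437 in macrophages P5. In naive or early CD8 T cells, with 3432 UMIs, they were 2.32%, 5.84% and 3.53%. The 12.3 ± 4.27% of cDC1 with Cxcl9 lay above both backgrounds. Their 3.23 ± 1.14% with Cxcl10 lay between them and, from these shares alone, is not read as expression. Cxcl10 was found in 10.6 ± 2.98% of the main microglia value (3 WT mice, median depth 6226 UMIs), above the mean of both backgrounds. These mice had only 39 to 48 such cells each. In CPM their range (112 to 448) overlapped that of naive or early CD8 T cells (31.9 to 158). The 8.57 ± 2.92% of mo-DCs, from 5.00 to 14.1% over mice, and the 7.00 ± 2.64% of gamma-delta T cells (n = 4, median depth 2893 UMIs) overlapped the background of naive or early CD8 T cells.

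For the receptors the thinned shares gave the same separation. Cxcr6 was found in 52.1 ± 5.47% of gamma-delta T cells (n = 4), 34.5 ± 4.97% of precursor-exhausted CD8 T cells (82.6% unthinned), 31.3 ± 5.12% of Tfh and 27.6 ± 5.71% of Th1 cells, against 0.466% of macrophages P5 and 0.174% of macrophages P3. Cxcr3 was found in 14.0 ± 5.28% of Tregs, 13.3 ± 5.80% of naive or early CD4 T cells and 4.42 ± 1.36% of cDC1, against 0.606% and 0.481% in the same macrophages.

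The ligands also differed in how evenly cells of 1 value carried them. At 1000 UMIs per cell, the top 10% of monocytes P1-P2 held 76.1 ± 7.09% of their Cxcl10 UMIs and 79.3 ± 13.3% of their Cxcl9 UMIs (n = 6). The top 10% of cDC2 held 34.3 ± 3.34% of their Cxcl16 UMIs (n = 7), and the top 10% of macrophages P5 held 37.8 ± 2.98% of Cxcl16 against 75.5 ± 11.7% of Cxcl9. A gene found in fewer cells gives a higher share by counting alone, and this part of the contrast was not tested.

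Cxcl10 was more frequent in macrophages, monocytes and mo-DCs that also carried Cxcl9. Among macrophages P5 with a Cxcl9 UMI, 20.5 ± 6.38% also had a Cxcl10 UMI, against 9.47 ± 4.30% of those without, and the share was higher in 7 of 7 mice. In mo-DCs the shares were 18.7 ± 12.5% and 7.16 ± 2.05% (7 of 7 mice), in monocytes P1-P2 40.6 ± 9.41% and 24.1 ± 6.97% (6 of 6) and in macrophages P3 16.3 ± 4.72% and 8.17 ± 3.65% (6 of 7). In cDC1 they were 8.87 ± 6.12% and 2.11 ± 0.783% (5 of 6), from 12 to 65 cells with Cxcl9 in a mouse. In cDC2 the share was higher with Cxcl9 in 2 of 4 mice. Cxcl16 varied more. In macrophages P5 45.2 ± 9.004% of cells with and 47.2 ± 4.79% of cells without Cxcl9 carried it (higher in 3 of 7 mice), and in monocytes P1-P2 and cDC1 the share was higher with Cxcl9 in 5 of 6 mice each. In mo-DCs Cxcl16 was more frequent in cells with Cxcl9 (44.8 ± 7.73% against 36.6 ± 3.94%, 7 of 7 mice) and with Cxcl10 (51.7 ± 7.60% against 36.8 ± 4.06%, 6 of 6 mice). With Cxcl10 it was lower in 5 of 7 mice in macrophages P5 (45.1 ± 6.84% against 46.6 ± 4.51%). In monocytes P1-P2 it was lower in 4 of 6 mice, although the mean was higher (49.1 ± 7.85% against 44.3 ± 9.76%). It was higher with Cxcl10 in 3 of 3 mice in proliferating macrophages, 3 of 4 in cDC1 and 3 of 5 in macrophages P3. The cells of a mouse share 1 library, so these are counts over mice and carry no p-value.

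**Figure D2:**
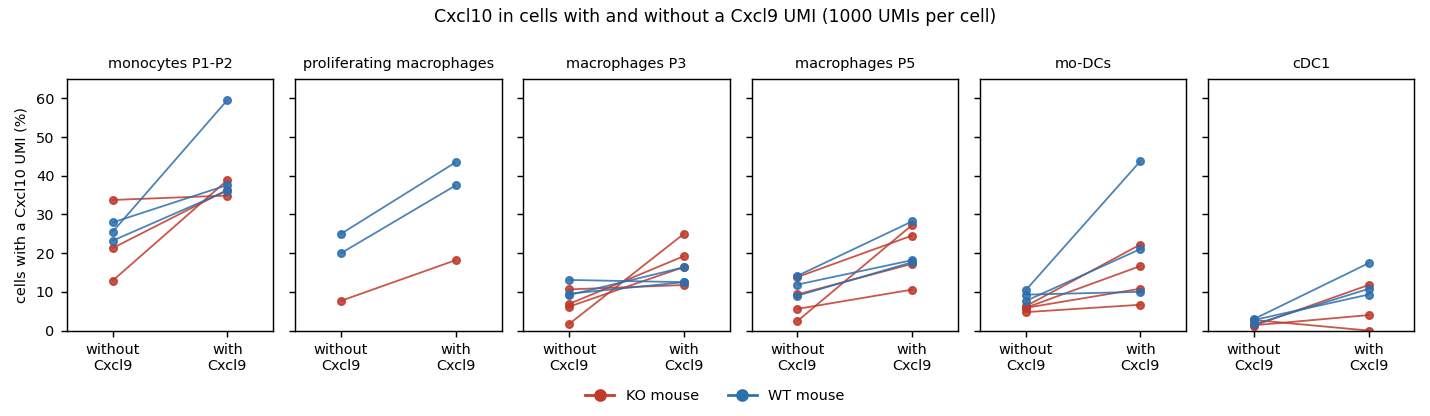
Percent of cells with a Cxcl10 UMI (vertical axis) among cells without and with a Cxcl9 UMI, at 1000 UMIs per cell, in 6 myeloid annotation values; each line is 1 mouse with 10 or more cells in both sets. The line rises in 7 of 7 mice in macrophages P5 and mo-DCs and in 6 of 6 in monocytes P1-P2.

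For the receptors the direction varied among T cell values, and few cells carried both. In Th1 CD4 T cells 13.6 ± 4.96% of cells with a Cxcr3 UMI also had a Cxcr6 UMI, against 27.7 ± 7.88% of cells without, lower in 3 of 3 mice, from only 11, 21 and 12 cells with Cxcr3. In exhausted CD8 T cells the shares were 7.69% and 19.8% (2 of 2 mice). In Tfh cells (32.9 ± 14.2% against 30.1 ± 5.49%, 4 mice) and precursor-exhausted CD8 T cells (33.9 ± 16.9% against 35.5 ± 5.11%, 4 mice) neither set was higher in every mouse. In naive or early CD8 T cells the shares were 21.2 ± 8.49% with and 16.6 ± 4.09% without Cxcr3, higher in 3 of 4 mice.

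The next question was which cells supplied each transcript in the sorted fraction, which depends on their number as well as their level. Monocytes and macrophages together held 64.1 ± 10.6% of a mouse's Cxcl9 UMIs, 63.7 ± 10.4% of its Cxcl10 UMIs and 56.2 ± 10.8% of its Cxcl16 UMIs (n = 7). Conventional dendritic cells added 19.7 ± 7.15% of Cxcl9 and 25.5 ± 7.83% of Cxcl16. They also held 5.47 ± 2.79% of Cxcl10, mostly in cDC1 (1446 UMIs, against 266 in cDC2). The share of cDC1 with Cxcl10 lay between the backgrounds above, so this part is not read as supply. The mo-DCs held 10.9 ± 4.60% of Cxcl9, 14.4 ± 4.00% of Cxcl16 and 9.40 ± 3.25% of Cxcl10. Their share of cells with Cxcl10 overlapped a background above, and how much of the 9.40% is background was not tested. T cells held 11.3 ± 6.26% of the Cxcl10 UMIs. Naive or early CD8 T cells were chosen beforehand as a background for it. Over the T cell values its mean ranged from 21.5 CPM (precursor-exhausted CD8 T cells) to 208 CPM (gamma-delta T cells). How much of this share is background was not tested, and it is not read as supply by T cells. Microglia, the cells in which the driver acts, held 0.171% of Cxcl9, 1.57% of Cxcl10 and 0.901% of Cxcl16. T cells held 97.3 ± 1.69% of Cxcr6. Cxcr3 was split. T cells held 63.9 ± 9.90% in KO and 36.0 ± 7.26% in WT mice, conventional dendritic cells 17.1 ± 10.5% and 31.3 ± 16.7%, and B cells 12.3 ± 17.4% over all mice. T cells were not the largest class in WT replicate 1 (conventional dendritic cells, 39.2%) or WT replicate 2 (B cells, 47.0%). The B cell part ranged from 0.646% in KO replicate 2 to 47.0% in WT replicate 2, where B cells were 8.02% of all cells.

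**Figure D3:**
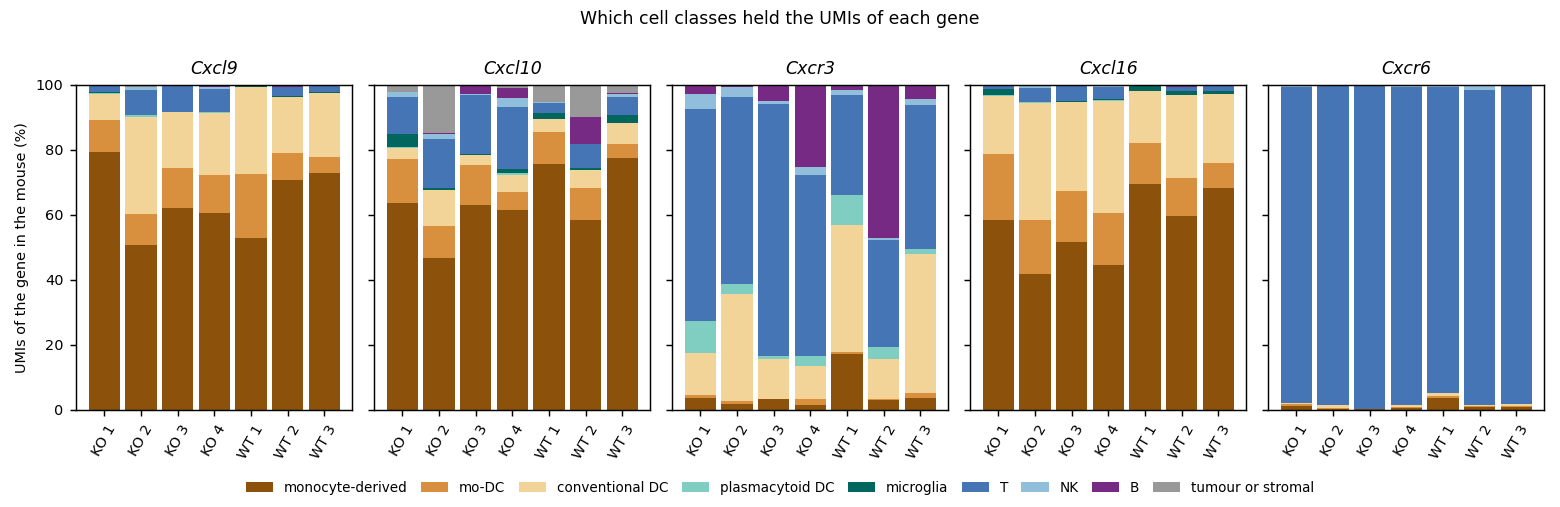
Percent of the UMIs of each gene (vertical axis) held by 9 cell classes, with 1 stacked bar per mouse that adds to 100. Monocytes and macrophages hold the largest part on average in the 3 ligand panels, with T cells holding up to 19.1% of Cxcl10 (KO replicate 4) and tumour or stromal cells up to 15.0% (KO replicate 2); T cells fill the Cxcr6 panel, and the Cxcr3 panel is divided among T cells, conventional dendritic cells and, in KO replicate 4 and WT replicate 2, B cells.

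KO and WT mice were then compared over all sorted cells. In such a sum, fewer cells of a type and less RNA per cell cannot be told apart. Cxcl10 was at 135, 69.2, 59.1 and 133 CPM in KO replicates 1 to 4 and at 371, 168 and 201 CPM in WT replicates 1 to 3. Cxcl16 was at 279, 268, 173 and 225 CPM in KO and 548, 366 and 318 CPM in WT. For both ligands every KO mouse lay below every WT mouse. Cxcr6 was at 106, 139, 295 and 119.6 CPM in KO and 23.4, 56.5 and 76.7 CPM in WT, so that every KO mouse lay above every WT mouse. Cxcl9 (KO 247, 143, 81.7 and 157, WT 137, 241 and 363 CPM) and Cxcr3 (KO 26.4, 40.3, 40.8 and 47.3, WT 17.3, 66.1 and 20.5 CPM) overlapped between the genotypes.

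None of these differences passed the test over all genes. In edgeR's quasi-likelihood test on the sums, with adjustment by Benjamini and Hochberg over 16997 genes, the log2 changes (KO over WT) were -1.30 for Cxcl10 (SE 0.39, adjusted p = 0.167), -0.79 for Cxcl16 (SE 0.23, adjusted p = 0.166) and 1.67 for Cxcr6 (SE 0.50, adjusted p = 0.167). They were -0.64 for Cxcl9 (SE 0.41, adjusted p = 0.411) and 0.15 for Cxcr3 (SE 0.47, adjusted p = 0.875). The Cxcr3 value was -0.19 without WT replicate 1, -0.12 without WT replicate 3 and 1.05 without WT replicate 2, the mouse with the most B cells. The count of members called was 0 of 5, with 3 at an unadjusted p under 0.05, and the fit called 0% of all genes. Before adjustment 20.5% of all genes were under 0.05 in these sums. DESeq2 called 3 of the 5, Cxcl10 (adjusted p = 0.0173), Cxcl16 (0.0200) and Cxcr6 (0.0103), while it called 7.75% of all genes in these sums, and over all alternatives their adjusted p reached 0.822, 0.920 and 0.841. The 2 members below and 1 member above without overlap stand beside 8.88% and 10.9% of all genes that did the same in these sums.

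The makeup of the samples moved with the genotypes. T cells were 43.5 to 79.9% of the cells in KO mice and 10.6 to 33.8% in WT mice, and monocyte-derived cells 9.25 to 23.5% and 32.3 to 53.1%. Each annotation value was then weighted by its mean share of cells over the 7 mice. The log2 changes came to -0.53 for Cxcl10, -0.08 for Cxcl16 and 0.23 for Cxcr6, and the genotypes overlapped for each of the 3. The test was limma on log2(CPM + 1), with adjusted p of 0.822, 0.920 and 0.841. In the sums as sorted each value counts by its UMIs, and the changes there are from edgeR. The 2 sets of changes therefore differ in more than makeup. At that fixed makeup Cxcl9 turned to 0.11 and Cxcr3 to -0.15. The weighting had no minimum of cells, and for WT replicate 1 it used levels from 5 Tregs and 8 Th1 CD4 T cells. For KO replicate 3 it used 1 tumour or stromal cell, and that mouse had no cell of the main microglia value. The Cxcl10 UMIs found in T cells were 15.8 ± 3.56% of all in KO mice and 5.31 ± 2.08% in WT mice, and moved with the share of T cells. How much of them is background was not tested.

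**Figure D4:**
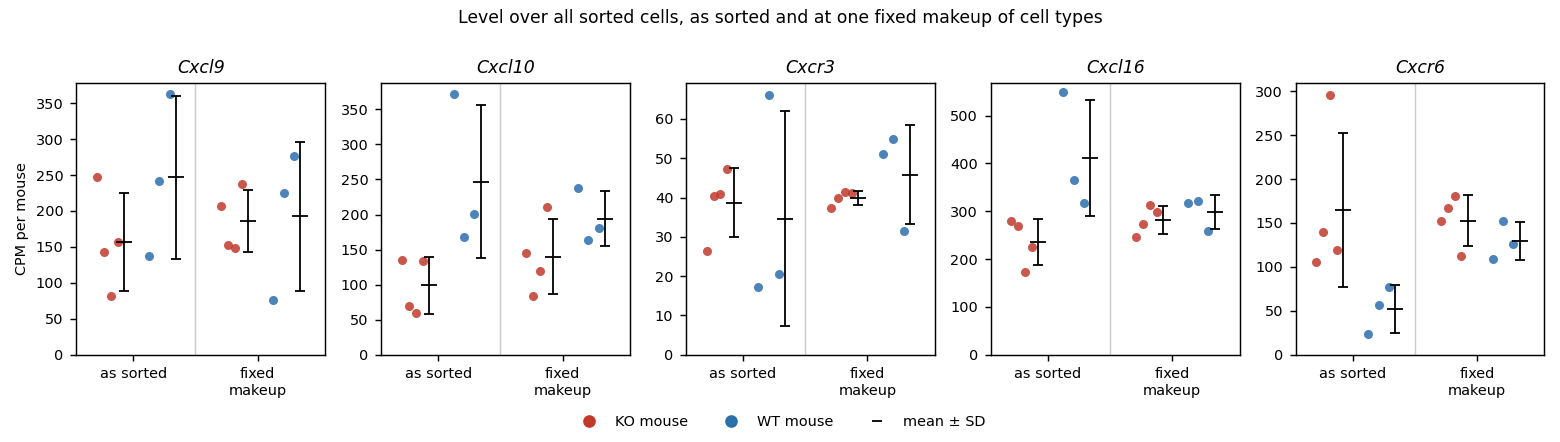
CPM over all sorted cells (vertical axis from 0, its own scale in each panel) for 4 KO and 3 WT mice. Left are the sums as sorted, in which each annotation value counts by its UMIs. Right, every value is weighted by its mean share of cells over the 7 mice. Points are mice and bars are mean ± SD. As sorted, Cxcl10 and Cxcl16 are lower and Cxcr6 higher in all KO mice; at the fixed makeup the genotypes overlap in all 5 panels.

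Within annotation values, 85 of 105 combinations of a member and 1 of the 21 values with 2 or more mice of each genotype passed the filter on low counts and were tested. edgeR called 0 of them, with 7 at an unadjusted p under 0.05 and a lowest adjusted p of 0.548, and DESeq2 called 1, Cxcl10 in mo-DCs (adjusted p = 0.0473). Of all gene tests in the same 21 fits, edgeR called 0.0166% and DESeq2 0.0835%, and 5.44% had an unadjusted p under 0.05 in edgeR. In 2 of the 85 tests every KO mouse lay below every WT mouse, and in 3 every KO mouse lay above. Over all genes the percentages were 4.85 and 5.63, and those of the members, 2.35 and 3.53, were no higher. These 5 are given next because their groups did not overlap, and so were chosen by their values.

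Cxcl10 was lower in the mo-DCs of all KO mice. It was at 173, 72.7, 138 and 109.7 CPM in KO and 348, 202 and 207 CPM in WT, a log2 change of -1.08 (SE 0.30, edgeR adjusted p = 0.548). In cDC1 it was at 52.6, 36.3, 23.3 and 40.4 CPM in KO and 76.1, 55.8 and 78.2 in WT, a log2 change of -0.90 (SE 0.24, edgeR adjusted p = 0.684). With no filter on low counts, a setting that called 0.292% of all gene tests, both passed, at adjusted p = 1.06e-06 and 5.08e-06, and over the other alternatives the adjusted p reached 0.962 and 0.943. The share of cDC1 with Cxcl10 lay between the backgrounds described above. In naive or early CD8 T cells, a background value, Cxcl10 was at 61.0 ± 41.4 CPM in KO and 121 ± 32.8 in WT, with overlapping mice. In B cells, the other, it was at 62.5 ± 37.9 and 56.3 ± 29.5 CPM. The part of such RNA in the cDC1 and mo-DC differences was not tested. Cxcl10 also had a negative log2 change in 17 of its 20 tests, with a median of -0.25, and none of the 20 passed edgeR's test. These tests share the same mice and include the background of naive or early CD8 T cells. The share of negative changes over all genes is not given here.

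Cxcl16 was higher in the cDC1 of all KO mice, at 326, 347, 355 and 363 CPM against 271, 311 and 257 CPM in WT (log2 change 0.31, SE 0.11, edgeR adjusted p = 0.756). Its other 17 tests were mostly on the other side, with 14 of 18 negative and a median of -0.14. They share the same mice and include T cell values, and the share of negative changes over all genes is not given here. T cell markers were higher in the same KO cDC1 sums, at 29.2 to 53.5 CPM summed over 6 genes against 7.35 to 19.7 CPM in WT. Singly, only Cd3e and Cd3d had every KO mouse above every WT mouse. Cxcl16 itself had a mean of at most 36.8 CPM in the T cell values. The part of such RNA in the Cxcl16 difference was not tested.

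Cxcr6 was higher in KO macrophages P5 and mo-DCs, values in which it was near background. In macrophages P5 it was at 5.48, 3.62, 5.69 and 3.89 CPM in KO and 1.75, 2.33 and 1.35 CPM in WT (log2 change 1.35, SE 0.36, edgeR adjusted p = 0.622). In mo-DCs it was at 4.10, 3.16, 4.84 and 9.91 CPM in KO and 1.49, 1.06 and 2.91 CPM in WT (log2 change 1.71, SE 0.56, edgeR adjusted p = 0.559). In both values Cxcr6 passed the filter on low counts through the KO sums, the group where it was high, so these differences are given as values and support nothing. In mo-DCs it fell under the filter when any 1 KO mouse was left out, and the WT sums held 3 or 4 UMIs each. The T cell markers were higher in KO as a sum, but not each of them was. Their sum over Cd3e, Cd3d, Trac, Cd4, Cd8a and Foxp3 was 38.8 to 50.1 CPM in KO and 9.56 to 28.1 CPM in WT macrophages P5, and 36.9 to 152 against 13.4 to 35.0 CPM in mo-DCs. Among the 6 genes, 3 in macrophages P5 and 2 in mo-DCs had every KO mouse above every WT mouse, and all 6 had UMIs in both genotypes. The part of such RNA in the Cxcr6 difference was not tested.

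In the annotation values with the highest ligand levels the genotypes overlapped. Cxcl10 in monocytes P1-P2 was at 413, 395, 828 and 1352 CPM in KO and 1238, 864 and 931 CPM in WT (log2 change -0.45, SE 0.45, edgeR adjusted p = 0.897). Cxcl16 in cDC2 was at 883, 861, 979 and 974 CPM in KO and 1187, 1126 and 817 CPM in WT (log2 change -0.27, SE 0.17, edgeR adjusted p = 0.626). In macrophages P5 the log2 changes were -0.21 for Cxcl10 (SE 0.31) and 0.05 for Cxcl16 (SE 0.15). Leaving out KO replicate 2 moved the Cxcl10 value to 0.013, and that of Cxcl16 was -0.024 without KO replicate 4 and -0.035 without WT replicate 3. Cxcl16 had log2 changes of -0.13 in macrophages P3 (SE 0.19) and -0.41 in monocytes P1-P2 (SE 0.21, edgeR adjusted p = 0.759). Cxcl10 had -1.55 in tumour or stromal cells (SE 1.14, edgeR adjusted p = 0.789) and -0.11 in proliferating macrophages (SE 1.06, edgeR adjusted p = 0.999). In the latter, leaving out 1 mouse gave -1.69 (KO replicate 4) to 0.45 (KO replicate 1). With the replicate number as a term, an alternative in which same-numbered mice share only a number, it passed edgeR's test. In low-quality or activated microglia, with 2 KO and 3 WT mice, the log2 changes were 0.09 for Cxcl10 (SE 0.73, edgeR adjusted p = 0.997) and -0.24 for Cxcl16 (SE 0.37, edgeR adjusted p = 0.969). The Cxcl10 value there turned to -0.29 without WT replicate 2. It was also slightly negative with a lower minimum of cells per mouse, so its direction does not rest on that mouse alone.

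The receptors did not pass the test in the T cell values tested. Gamma-delta T cells, with the highest Cxcr6, were not tested, since only KO replicate 1 had 20 cells; it had 726 CPM against 1039, 751 and 873 CPM in WT. Cxcr6 in precursor-exhausted CD8 T cells was at 443, 476, 501 and 355 CPM in KO and 302, 484 and 349 CPM in WT (log2 change 0.24, SE 0.19, edgeR adjusted p = 1.00), and the changes in Tfh, Th1 and exhausted CD8 T cells were 0.15 (SE 0.22), 0.17 (SE 0.22) and 0.07 (SE 0.23). The last turned to -0.018 without KO replicate 1 and -0.031 without KO replicate 2. Cxcr3 in naive or early CD4 T cells was at 184, 81.0, 153 and 134 CPM in KO and 117, 177 and 142 CPM in WT (log2 change -0.17, SE 0.24, edgeR adjusted p = 0.999), and it turned to 0.03 without KO replicate 2 and 0.05 without WT replicate 2. In Tregs, B cells and naive or early CD8 T cells its changes were 0.23 (SE 0.24), -0.36 (SE 0.77) and 0.06 (SE 0.21). The B cell value turned to 0.32 without WT replicate 2 and the CD8 value to -0.01 without KO replicate 1 and -0.12 without WT replicate 3.

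For Cxcl9 the genotypes overlapped in the macrophages, where WT replicate 1 stood apart. In macrophages P5 it was at 758, 411, 293 and 836 CPM in KO and 71.1, 560.1 and 474 CPM in WT. In macrophages P3 it was at 613, 378, 515 and 491 CPM in KO and 119.7, 576 and 753 CPM in WT, and in proliferating macrophages WT replicate 1 had 41.1 CPM against 440.3 to 921 in the other 5 mice. It was also the lowest of the 7 mice in cDC1, at 165 CPM (others 194 to 414), and the lowest WT mouse in monocytes P1-P2. The same mouse was not low in mo-DCs (255 CPM, others 145 to 393) and was the highest in cDC2 (297 CPM, others 21.4 to 204). Its Cxcl10 was at 309 CPM in macrophages P5 and at 390.3 in macrophages P3, the highest of the 7 mice there, but in proliferating macrophages its 164 CPM was the lowest of the WT mice (404 and 356 in the others). Beside these values, WT replicate 1 had the fewest T cells (10.6% of its cells, others 31.9 to 79.9%) and the lowest Ifng over all sorted cells (31.3 CPM, others 127 to 501). Whether either bears on its Cxcl9 was not tested, and the mouse was singled out after its values were seen.

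The direction of 2 genotype differences of Cxcl9 depended on that mouse. The log2 changes were 0.65 in macrophages P5 (SE 0.75, edgeR adjusted p = 0.902), 0.03 in macrophages P3 (SE 0.56), 0.20 in proliferating macrophages (SE 1.13) and -0.90 in monocytes P1-P2 (SE 0.60, edgeR adjusted p = 0.816). Without WT replicate 1 the P3 and proliferating values turned to -0.44 and -0.36. The P3 value also turned without KO replicate 1 (-0.10) and with no filter on low counts. The proliferating value also turned with a lower minimum of cells per mouse, so neither direction rests on WT replicate 1 alone. In monocytes P1-P2 Cxcl9 was at 159, 326, 681 and 512 CPM in KO and 324, 734 and 1239 CPM in WT.

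**Figure D5:**
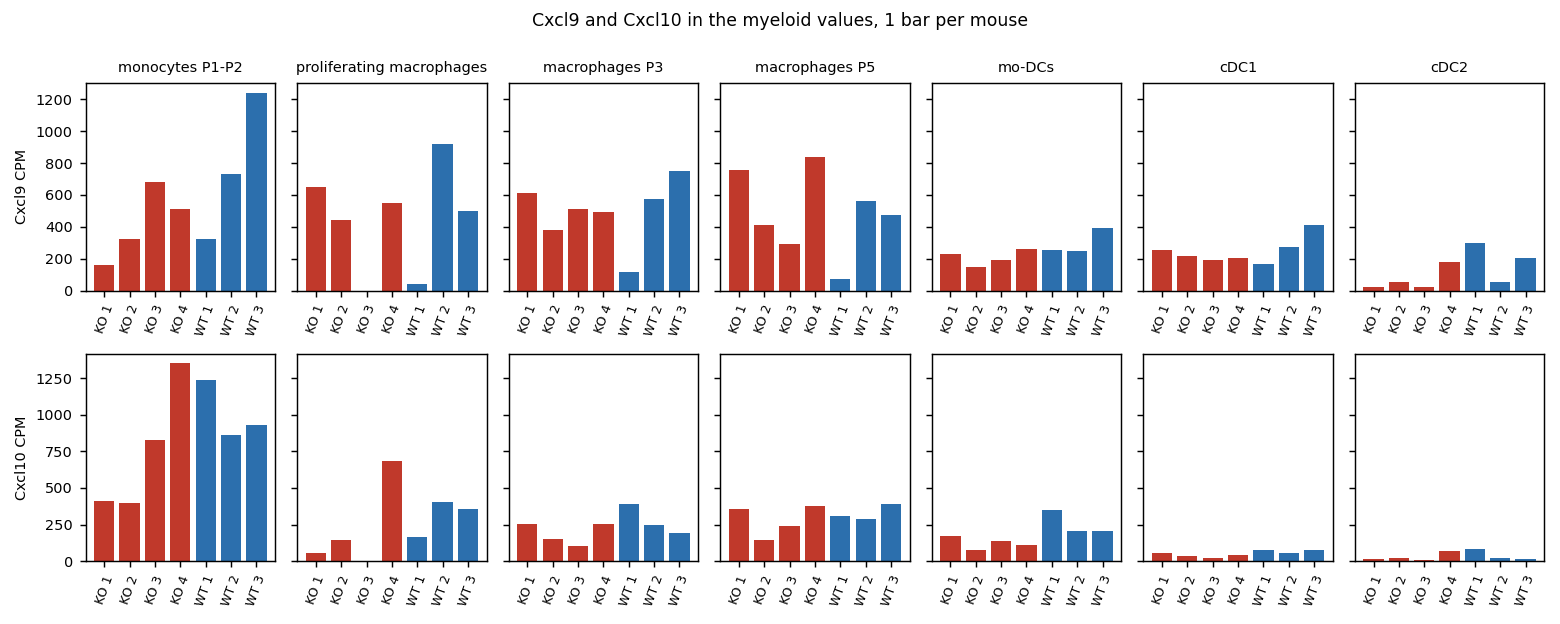
CPM of Cxcl9 (upper row) and Cxcl10 (lower row) in 7 myeloid annotation values, 1 bar per mouse from 0 (KO red, WT blue; KO replicate 3 has no bar in proliferating macrophages, where it had fewer than 20 cells). WT replicate 1 has the shortest Cxcl9 bar in the 3 macrophage panels (41.1 to 119.7 CPM) and in cDC1 (165 CPM), and none of its Cxcl10 bars is the shortest.

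Other genes of the pathway were read from a list of 20, which holds further ligands and receptors, interferon-γ and its signalling chain, T cell transcription factors and enzymes that process these chemokines. edgeR called 0 of 322 tests of these genes within annotation values in either direction, with 24 at an unadjusted p under 0.05 (5.44% of all gene tests were). Over all sorted cells it called 0 of 20, with 11 at an unadjusted p under 0.05 (20.5% of all genes were). The DESeq2 fits covered these genes too, but their DESeq2 results are not reported here. Over all sorted cells Ifng had a log2 change of 1.34 (edgeR adjusted p = 0.260). Within annotation values the median log2 change of the list lay between -0.18 (naive or early CD8 T cells) and 0.42 (tumour or stromal cells).

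Ifng, the inducer of Cxcl9 and Cxcl10, was highest in Tfh CD4 T cells at 1721 ± 822 CPM (n = 6) and Th1 CD4 T cells at 989 ± 257 (n = 6), ahead of precursor-exhausted CD8 T cells at 590.1 ± 108 (n = 7). Irf1, an interferon-induced transcription factor, was highest in cDC2, at 683 ± 163 CPM. In cDC2 Cxcl9 was at 119 ± 108 CPM and Cxcl10 at 33.0 ± 29.4, and Cxcl16 was highest. Tbx21, the T-bet gene that drives Cxcr3 in T cells, was highest in exhausted CD8 T cells at 224 ± 67.1 CPM, a value in which Cxcr3 was at 39.9. Adam10 and Adam17, which shed CXCL16, were highest in low-quality or activated microglia at 309 ± 73.4 and 157 ± 50.9 CPM (n = 5), with macrophages P5 at 137 ± 18.5 and 134 ± 11.4 CPM. Dpp4, a protease that trims CXCL9 and CXCL10, was highest in cDC1 (124 ± 23.6 CPM) and mo-DCs (121 ± 21.9 CPM).

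Over the 23 annotation values, the genes with the most similar pattern were ranked by Spearman's rho of log2(CPM + 1) among 10996 genes with 20 CPM in at least 1 value. The values share libraries and depth, so rho is a description. Cxcl16 was most like Zmynd15 (0.98), the gene that overlaps its 5′ end, then Clec7a (0.94), Il1b (0.94), Tmem106a (0.92) and Il18bp (0.92). Zmynd15 was itself highest in cDC2 (675 ± 181 CPM) and macrophages P5 (324 ± 53.9 CPM), and how many of its reads stem from Cxcl16 transcripts, or the reverse, cannot be told from these counts. Cxcl9 was most like Il1b (0.94), Lst1 (0.93), Tgfbi (0.93), Plbd1 (0.92) and Lrrc25 (0.91). Cxcl10 was most like Tpcn2 (0.90), Fam129b (0.89), Ccl7 (0.88), Oas2 (0.88) and Lgals8 (0.86). Among the members, Cxcl9 was nearer to Cxcl16 (0.89) than to Cxcl10 (0.55).

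Cxcr6 was most like St6galnac3 (0.95), the T cell receptor constant genes Trbc2 (0.95) and Trbc1 (0.92), Cd226 (0.93) and Kcnk5 (0.93). Cxcr3 was most like Heg1 (0.88), Grap (0.86), Cdc42se2 (0.84), Il16 (0.84) and Dedd2 (0.83), and its rho with Cxcr6 was 0.53.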

How the data were processed

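The deposited matrix holds UMIs per gene and cell, with a few values that are not whole, so the authors' deposited values are estimated counts (the unit expected counts) (7.51% of non-zero values were not whole; those of the 5 members all were). Per the submitters' processing notes, FastQC 0.11.5, STAR 2.7.10a, STARsolo and the mm10 build were used; cell filters and doublet removal are not given in the sources used here, and no doublet caller was run. The authors' deposited cell table gives the annotation, the detected genes per cell as a count and the percent of mitochondrial UMIs per cell; the last 2 entered no test. The members and gene lists were chosen with earlier results of these data known.

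UMIs were summed per mouse and annotation value (20 or more cells), expressed as CPM, and the rounded sums were tested with edgeR 4.0.16 (quasi-likelihood, TMM, filterByExpr) with R 4.3.3, each annotation value alone and all sorted cells together, with Benjamini-Hochberg adjustment over all genes tested and a threshold of 0.05. Each mouse is 1 replicate. On simulated mo-DC counts with 200 genes changed 4-fold, the test recovered 199 and called 4 others. Those counts had the same fixed spread between mice for every gene (dispersion 0.05), and only genes with an expected count above 10 in every mouse were changed. Recovery of smaller changes, or with a wider spread between mice, was not tested. Fold changes are given for each member in its 4 highest tested annotation values, in microglia and in the all-cell sums, and for any test without overlap between the genotypes. Shares of cells were taken after thinning to 1000 UMIs with numpy 2.4.6. Alternatives were DESeq2 1.42.0, other size factors, no filter on low counts, sex or the replicate number as a term, whole-number values only, 10 cells per mouse, each mouse left out, and a fixed makeup of cells (limma 3.58.1). Leaving mice out of the UMI shares and co-detection was chosen after seeing the data. Correlations of deviations between same-numbered KO and WT mice were 0.264, -0.294 and -0.0189, so the numbers were not taken to pair mice. Values are given for 6 genes of the pathway list; those of the other members of that list are not reported here.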

Additional observations from a re-analysis of the deposited data

How the results depend on the processing

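Few microglia, 3 or 4 mice per genotype and UMI counts per cell limit these results. Of 414 values under single alternatives for 32 results, 381 kept direction and call, 7 newly passed and 26 turned direction; the cause was not tested. The count of calls within annotation values, 0 with edgeR, was 1 with DESeq2, 2 with no filter on low counts, 0 to 1 with each mouse left out (Cxcl10 in naive or early CD8 T cells without KO replicate 4) and 2 with the replicate block (Cxcl10 in naive or early CD8 T cells and, at -1.47, in proliferating macrophages). Over all sorted cells it was 0, and 3 with DESeq2. Same-numbered mice share only a number.

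Shares of cells moved with depth. Without thinning they were 36.3% for Cxcl9 and 42.2% for Cxcl10 in monocytes P1-P2, 28.5% for Cxcr3 in naive or early CD4 T cells, 96.1% for Cxcl16 in cDC2 and 76.6% for Cxcr6 in gamma-delta T cells. At 2000 UMIs the last 3 were 25.003%, 79.1% and 68.6%.

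These log2 changes turned direction. With each mouse left out in turn, Cxcl9 ranged from -0.36 (without WT replicate 1) to 1.04 (without WT replicate 2) in proliferating macrophages and from -0.44 (without WT replicate 1) to 0.53 (without WT replicate 3) in macrophages P3. Cxcl10 ranged from -1.69 (without KO replicate 4) to 0.45 (without KO replicate 1) in proliferating macrophages, from -0.40 to 0.013 (without KO replicate 2) in macrophages P5 and from -0.29 (without WT replicate 2) to 0.40 in low-quality or activated microglia. Cxcr3 ranged from -0.27 to 0.050 (without WT replicate 2) in naive or early CD4 T cells, from -0.87 to 0.32 (without WT replicate 2) in B cells, from -0.12 (without WT replicate 3) to 0.37 in naive or early CD8 T cells and from -0.19 (without WT replicate 1) to 1.05 (without WT replicate 2) over all sorted cells. Cxcl16 in macrophages P5 ranged from -0.035 (without WT replicate 3) to 0.15, and Cxcr6 in exhausted CD8 T cells from -0.031 (without KO replicate 2) to 0.20. With 10 cells per mouse, Cxcl9 was -0.11 in proliferating macrophages and Cxcl10 was -0.048 in low-quality or activated microglia. With no filter on low counts Cxcl9 in macrophages P3 was -0.030, and with the replicate block Cxcl16 in macrophages P5 was -0.020. At the fixed makeup Cxcl9 was 0.11 and Cxcr3 -0.15 over all sorted cells.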
